A study of Homo sapiens with 6 samples.

Results

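The profile described here is that of HCT116 cells carrying a non-silencing hairpin (NS shRNA), the control cells of a study of PEA15. It rests on 2 of the 6 arrays of the series, NS replicates 1 and 2, chosen by their label alone. HCT116 is a human colorectal carcinoma line. The control cells stably expressed the non-silencing short hairpin RNA, which has no intended target, received no other agent according to the labels, and grew in serum-containing medium. The other 4 arrays, of cells with hairpins against PEA15, were not compared with them. The labels do not say which promoter drove the hairpin, nor whether the line was a clone or a pool, so the profile is that of hairpin-bearing cells and not of the parental line. They number the replicates without saying that these came from separate cultures, so differences between the arrays may be technical.

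Colon epithelium is renewed from stem cells at the crypt base, which Wnt signals keep dividing, while their daughters move up and become absorptive, mucus-secreting or hormone-secreting cells. Carcinoma lines keep parts of this program and combine them with growth-factor signalling through ERBB receptors, RAS and the kinases ERK1 and ERK2. PEA15 is a small death effector domain protein that holds ERK in the cytoplasm and also binds the death adaptor FADD.

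On a bead array each gene is read by 1 or more oligonucleotide probes, and each probe's signal is set against negative control beads that match no transcript. The detection p is the share of those beads at least as bright as the probe, and a probe was called detected where it was under 0.05 on both arrays. Each array carried 47323 probes, of which 19839 (41.9%) passed on replicate 1 and 20099 (42.5%) on replicate 2. The probes detected on both arrays numbered 18104, or 38.3%, a further 3730 passed on 1 array, and 25489 on neither. A single gene symbol was known for 30113 probes, which together named 19952 genes. A gene was called detected if any of its probes was. By this rule 10874 genes (54.5%) were detected on both arrays, 1258 (6.31%) on 1 array and 7820 (39.2%) on neither. Genes with 1 probe were detected in 49.1% of 13293 cases and genes with more probes in 65.3% of 6659. A gene not detected had no probe above background, which is not a measurement that its RNA was absent. With every probe of a gene required, 8526 genes (42.7%) were detected on both arrays. Counts given below with every probe required stand beside that share.

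Levels are log2 signals after background correction and normalisation, taken from each gene's brightest probe, and paired values give replicate 1 and then replicate 2. The rank of a gene within an array is the rank of that signal, which depends on how well the probe binds as well as on the RNA, so an order of genes is an order of signals. Detected genes had a median level of 7.61, with the lower quartile at 6.14 and the upper at 9.10. The brightest 10% of all named genes began at 9.61. Genes detected on neither array had a median of 4.42, close to the lowest level of any detected probe, which was 4.81 on replicate 1 and 4.79 on replicate 2. The 2 arrays gave nearly the same order. Over the detected genes, which are not independent replicates, the levels correlated with r = 0.995 and a Spearman rho of 0.994, with a median absolute difference of 0.11. Only SNN and SOCS6 differed by more than 1. Genes detected on neither array correlated with r = 0.512.

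**Figure D1:**
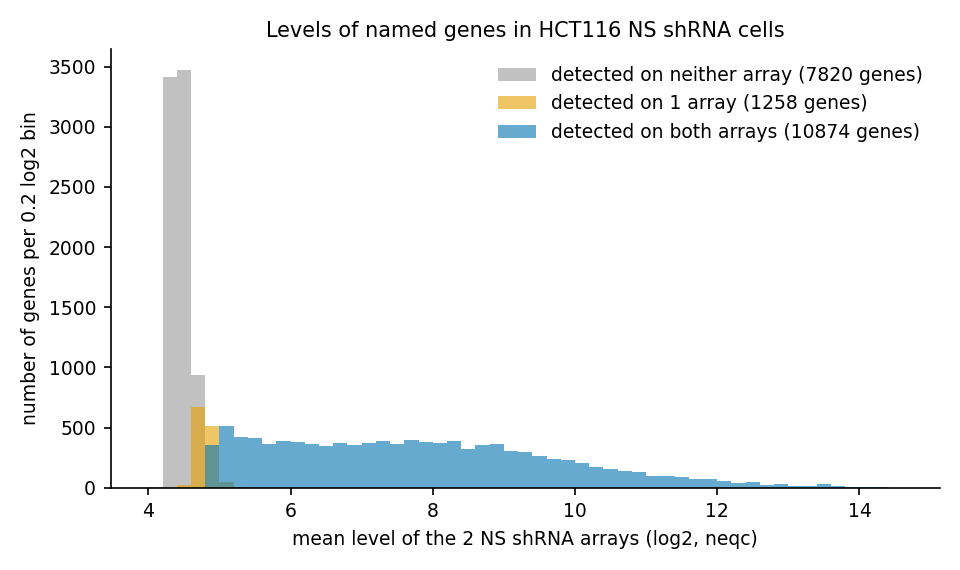
Number of named genes (vertical axis) by mean log2 level over the 2 NS shRNA arrays (horizontal axis), for genes detected on both arrays, on 1 array and on neither. The 7820 genes detected on neither array form a narrow peak around 4.42, and the 10874 detected genes spread from 4.81 to 14.45.

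The strongest signals came from the machinery of protein synthesis. Of the 20 genes with the highest mean level, 11 were genes of cytosolic ribosomal proteins. EEF1A1, the factor that delivers aminoacyl-tRNA to the ribosome, ranked 1 on both arrays at 14.42 and 14.49. RPS12 ranked 2 on both, at 14.38 and 14.38. RPS29 stood at 14.30 and 14.28, RPL41 at 14.25 and 14.30, RPS27 at 14.29 and 14.20, and RPS25 at 14.20 and 14.22, so none of these moved by more than 0.09 between arrays. The 20 also held TPT1, a translationally controlled protein (14.16 and 14.18), ACTG1, a cytoplasmic actin (14.09 and 14.13), and UBB, a polyubiquitin gene (14.03 and 14.00), as well as RPLP2, RPS19, RPL38, RPS16, RPS10 and RPL27A. The remaining 5 names call for caution. RPL13AP5, RPSAP9 and SLC7A5P2 are pseudogenes, whose probes may capture RNA of the parent genes. A second probe of RPSAP9 and the other 2 probes of SLC7A5P2 were not detected on both arrays. LAIR1, an immune-cell receptor, had a probe at 14.11 and 14.21 and another at 4.56 and 4.52 that was not detected. CLUAP1, a cilium protein, had 1 probe at 14.18 and 14.19 and 4 others between 6.34 and 8.21. Probes of 1 gene disagreed elsewhere too. Of 674 genes with several probes and a level of at least 10, 153 (22.7%) had a probe detected on neither array.

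Of the 72 named cytosolic ribosomal protein genes 69 were detected, with a median level of 13.41 among those detected, against 54.5% and 7.61 for all named genes. RPL10, RPL10L and RPL3L were detected on neither array, the last of these a muscle form and RPL10L a testis form of its parent. Many genes of this machinery begin transcription at a terminal oligopyrimidine (TOP) start, a C followed by a run of C and T, which couples their translation to mTOR signalling. The start of the promoter was read from RefSeq, build GRCh38.p14, for the 11104 named genes with a single listed start. The TOP start was taken as C followed by at least 4 pyrimidines from the first transcribed base, on the gene's own strand. It was present in 4.61% of all 11104 genes. Among the ribosomal protein genes it was present in 38 of 52, or 73.1%, among translation initiation factors in 9 of 36, and among mitochondrial ribosomal proteins in 4 of 57 (7.02%). A match describes these letters and is not a mapped start in HCT116 cells. The windows of bright ribosomal genes, EEF1A1 and TPT1 are shown to make the tract visible. Each runs from 10 bases before the listed start to 20 after it, 5′ to 3′ on the gene's strand, with the tract in capitals.
RPS12 (chr6:132814559-132814588, plus strand): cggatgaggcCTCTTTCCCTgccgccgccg
RPL41 (chr12:56116623-56116652, plus strand): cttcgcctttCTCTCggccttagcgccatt
RPS27 (chr1:153990752-153990781, plus strand): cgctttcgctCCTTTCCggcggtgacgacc
RPS25 (chr11:119018324-119018353, minus strand): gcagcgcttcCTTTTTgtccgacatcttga
RPLP2 (chr11:809957-809986, plus strand): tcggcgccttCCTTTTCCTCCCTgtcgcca
EEF1A1 (chr6:73521013-73521042, minus strand): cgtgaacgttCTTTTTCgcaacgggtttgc
TPT1 (chr13:45341164-45341193, minus strand): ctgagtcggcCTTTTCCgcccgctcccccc
RPS29 (chr14:49598691-49598720, minus strand): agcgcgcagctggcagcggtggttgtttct
RPS29 has no such tract at its listed start and ranked 3 and 5 on the 2 arrays. In the others the tract is 5 to 13 bases long.

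The line was checked first against epithelial markers. Of 26 named genes of epithelial adhesion and tight junctions 22 were detected, or 84.6% against 54.5% of all named genes. EPCAM, the epithelial adhesion molecule, stood at 12.61 and 12.56. SPINT2, an inhibitor of membrane serine proteases, stood at 12.13 and 12.01. MAL2, a protein of apical transport, stood at 10.94 and 10.95. All these lay within the brightest 10% of genes on both arrays. The desmosomal cadherin DSG2 was at 10.41 and 10.41, the tight junction protein CLDN7 at 10.23 and 10.26, and JUP, which links cadherins to the cytoskeleton, at 10.21 and 10.25. CDH1, the E-cadherin gene whose loss marks mesenchymal change, was at 9.85 and 9.68. OCLN and the splicing factor ESRP2 were detected on neither array, and MARVELD2 and OVOL1 on 1 array. Keratins of simple epithelia were detected in 6 of 7 cases. KRT19 stood at 11.94 and 11.74 and KRT8 at 11.20 and 11.24, while KRT18, the usual partner of KRT8 in filaments, stood at 6.92 and 6.64. KRT20, a keratin of mature gut cells, was near background at 5.24 and 5.24, with 1 of its 2 probes detected. KRT7 was not detected. Of 11 keratins of stratified epithelia 3 were detected, with KRT10 at 9.88 and 9.82 the brightest, and KRT1, KRT5 and KRT14 were among the 8 detected on neither array.

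Markers of mature colon cells were mostly below detection, whereas 54.5% of all named genes were detected. Of 27 genes of absorptive colonocytes and enterocytes 4 were detected and 21 were detected on neither array. CA2, carbonic anhydrase 2, was the exception in brightness at 9.93 and 10.21. CEACAM1, a cell adhesion molecule of the apical surface, was at 7.16 and 7.04. DPP4 and SI, brush border enzymes, lay at 5.21 and 4.92 and at 4.95 and 4.92, and neither passed a stricter detection p of 0.01. VIL1, FABP1, FABP2, SLC26A3, AQP8 and CA1 were among those not detected. Of 19 goblet cell and mucus genes 3 were detected, or 5 with replicate 2 alone. With every probe required 0 were, against 42.7% of all named genes. The membrane mucin MUC1 stood at 6.98 and 7.26, the mucus protein FCGBP at 6.61 and 7.06, and MUC4 at 5.05 and 5.17. The secreted gel-forming mucins MUC2 and MUC5B were detected on neither array. Of 8 Paneth cell genes 2 were detected, LYZ (5.61 and 5.28) and MMP7 (5.11 and 5.17), both near background. SCG2, a granin of secretory granules, was the 1 enteroendocrine gene of 13 that was detected, at 9.0 and 8.98, while the granins CHGA and CHGB and the factor NEUROG3 were not.

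Transcription factors of the gut were detected in 15 of 24 cases (62.5%), against 54.5% of all named genes, and in 12 with every probe required. SOX9, a factor of crypt progenitors, was at 10.51 and 10.25. The epithelial ETS factors EHF and ELF3 were at 8.94 and 8.82 and at 8.41 and 8.33. TCF7L2, the Wnt effector of the gut, was at 8.54 and 8.22. CDX2, the factor that defines intestinal identity, was detected at 7.55 and 7.44, close to the median of detected genes. Its relative CDX1 was detected on neither array, nor were ATOH1, which directs the secretory lineage, ASCL2, GATA4, GATA5, FOXA2 and SOX2. Stem cell genes were detected in 13 of 22 cases (59.1%), near the 54.5% of all named genes. CD44, a hyaluronan receptor, stood at 12.04 and 12.32, BMI1, a polycomb protein, at 9.76 and 10.25, and CD24 at 9.14 and 9.20. AXIN2, a Wnt feedback gene, was at 9.07 and 9.01, and PROM1, the CD133 antigen, at 8.70 and 8.96. The crypt base markers LGR5, OLFM4, SMOC2 and ASCL2 were detected on neither array, as were LGR4, ALDH1A1 and PTPRO. For the label of a colorectal epithelial line, most adhesion genes and simple keratins were thus detected, and of the gut factors CDX2 was while CDX1, GATA4, GATA5, FOXA2 and ATOH1 were not. Most markers of differentiated colon cells were not above background.

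**Figure D2:**
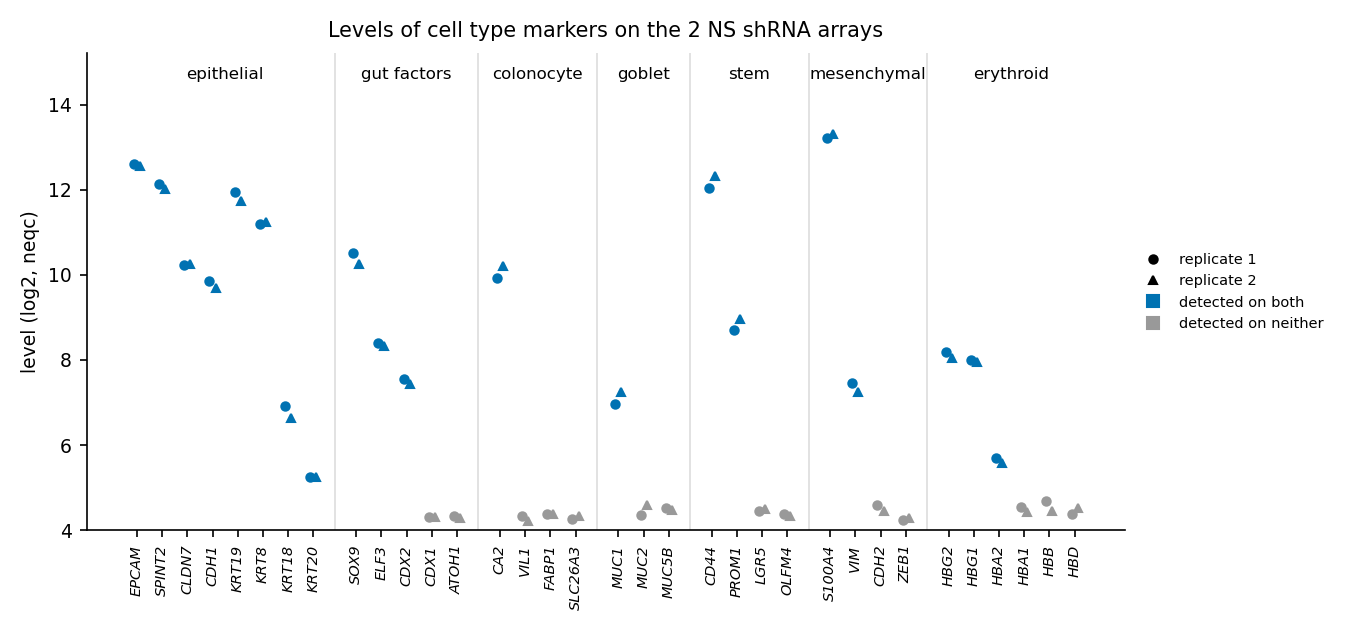
Log2 level (vertical axis) of cell type markers on NS shRNA replicate 1 (circles) and replicate 2 (triangles), coloured by detection. EPCAM, KRT19, CD44 and S100A4 lie between 11.74 and 13.31, whereas VIL1, MUC2, LGR5 and HBB lie under 4.80 with the genes not detected.

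HOX genes, which record position along the body axis, were detected in part of the HOXB, HOXC and HOXD clusters. The HOXA cluster had only 1 named member here, detected at a mean level of 5.31. In the HOXB cluster 6 of 10 were detected (60%), from HOXB3 to HOXB8, near the 54.5% of all named genes. HOXB8 stood at 9.93 and 10.14, HOXB7 at 9.91 and 9.68, and HOXB5 at 9.58 and 9.61. HOXB4 (6.58 and 6.58), HOXB6 (6.09 and 6.37) and HOXB3 (5.80 and 5.47) were dimmer. The genes on either flank, HOXB1, HOXB2 and HOXB9, were detected on neither array, and HOXB13 on 1 array. In the HOXC cluster 5 of 9 were detected (55.6%), also near that share. With every probe required 3 were (33.3%, against 42.7% of all named genes). HOXC6 was at 8.50 and 8.54 by 1 of its 4 probes, and HOXC13, HOXC9, HOXC8 and HOXC4 lay between 5.02 and 6.38. HOXC5, HOXC10, HOXC11 and HOXC12 were not detected. In the HOXD cluster only HOXD4 (4.99 and 5.13) and HOXD3 (4.81 and 4.81) of 9 were detected, the latter not at a detection p of 0.01.

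**Figure D3:**
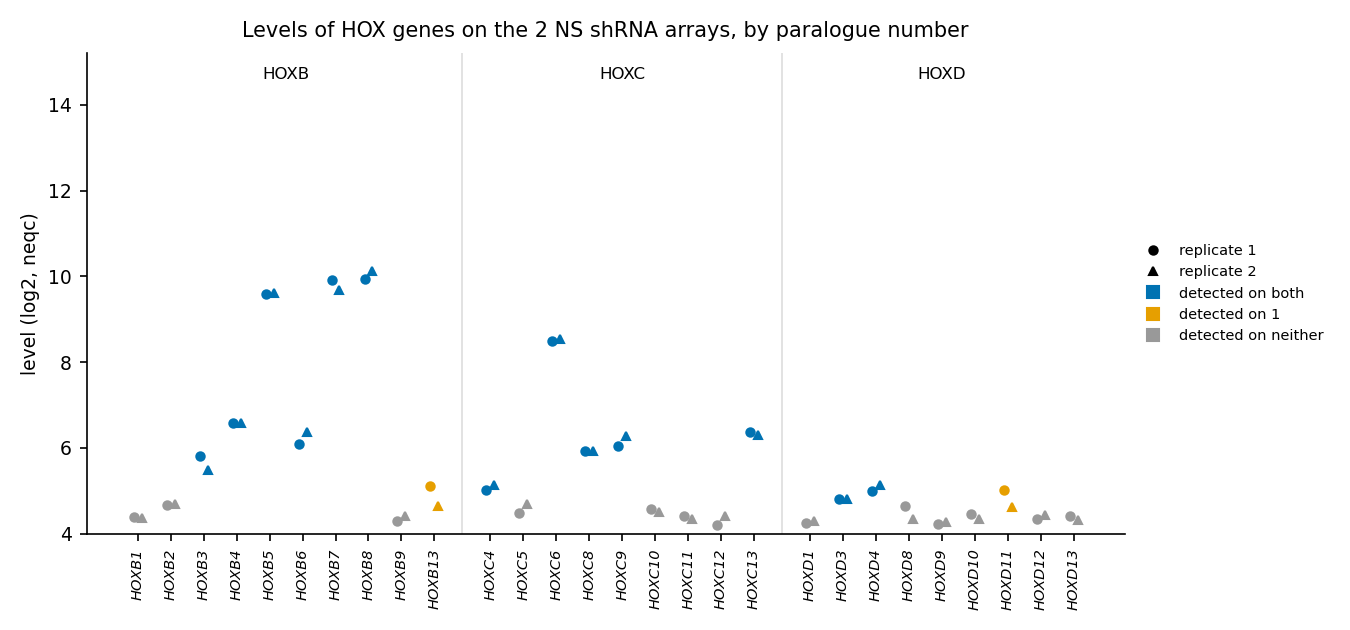
Log2 level (vertical axis) of the HOXB, HOXC and HOXD genes in order of paralogue number on NS shRNA replicate 1 (circles) and replicate 2 (triangles), coloured by detection. HOXB5, HOXB7 and HOXB8 lie between 9.58 and 10.14, and both detected HOXD genes lie between 4.81 and 5.13.

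Markers of other cell types were mostly not detected, against 54.5% of all named genes. The counts were 4 of 15 for T and B lymphocytes, 3 of 16 for myeloid cells, 1 of 12 for endothelium, 3 of 16 for fibroblasts and smooth muscle, 2 of 17 for hepatocytes, 1 of 7 for adipocytes and 5 of 19 for muscle. PTPRC, CD3E, CD3D, PECAM1, CDH5, COL1A2 and COL3A1 were each detected on neither array. In a bulk sample a dim marker in few cells and a low level in every cell cannot be told apart. The lymphocyte genes that passed were dim, with CD79B at 6.04 and 6.24 and ZAP70, MS4A1 and LCK between 4.84 and 5.05, the last 3 lost at a detection p of 0.01. None of the 10 pluripotency genes was detected, POU5F1, NANOG and LIN28B among those 10. Mesenchymal genes were detected in 9 of 20 cases (45.0%). S100A4, a calcium-binding protein linked to motility, was at 13.21 and 13.31. AXL, a receptor kinase, was at 7.93 and 8.19, the smooth muscle actin ACTA2 at 7.48 and 7.50, and the filament protein VIM at 7.46 and 7.25. CDH2, FN1, SNAI1 and ZEB1 were detected on neither array.

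Some genes usually confined to other tissues were bright. Of 28 germ cell and cancer-testis genes 4 were detected (14.3%, against 54.5% of all named genes). MAGEB2 stood at 11.47 and 11.41 and PRAME at 8.40 and 8.25. The close relatives MAGEA6 (7.89 and 7.84) and MAGEA3 (7.30 and 7.45, by 1 of 2 probes) may share RNA between their probes. Germ line genes such as DDX4, DAZL and SYCP1 were not detected. Of 17 neuronal genes 7 were detected. TUBB3, the neuronal tubulin, was at 10.87 and 10.84. The synaptic protein SYT1 was at 8.19 and 8.44 by 1 of 2 probes, the other being at 4.35 and 4.41. GAD1, which makes GABA, was at 8.18 and 8.19, and the glutamate receptor subunit GRIN1 at 8.05 and 7.99 by 1 of 3 probes. RBFOX3, SNAP25 and STMN2 were detected on neither array. Of 10 erythroid genes 3 were detected, all globins: HBG2 at 8.18 and 8.04, HBG1 at 8.0 and 7.95, and HBA2 at 5.70 and 5.59. HBG1 and HBG2 are nearly identical genes, so their probes may read the same RNA. HBB, HBD, HBA1 and the heme enzyme ALAS2 were not detected.

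PEA15, the target of the study, had 1 probe, detected at 8.93 and 9.10. It ranked 3006 and 2728 among 19952 genes on the 2 arrays, and 2858 by its mean level over both. Of 14 named genes of PEA15 and its binding partners 13 were detected (92.9%). With every probe required 7 were (50%, against 42.7% of all named genes). AKT1, which phosphorylates PEA15, stood at 10.35 and 10.46. FADD was at 9.12 and 9.21, MAPK3, which encodes ERK1, at 9.20 and 9.10, and the kinase gene PRKCD at 8.90 and 9.02. CAMK2A, a form of the calcium kinase best known from neurons, was not detected. CDK6, a kinase of the G1 phase, was at 9.47 and 9.63, and JUN, a subunit of the AP-1 factor, at 7.34 and 7.52. All 3 of PEA15, CDK6 and JUN were higher on replicate 2, by 0.18, 0.16 and 0.18, more than the median difference of 0.11 and less than the 0.39 that 95% of detected genes stayed within.

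Growth factor receptors were detected in part. Of the 4 ERBB receptors 3 were detected: ERBB2 at 8.96 and 9.11 by 1 of 3 probes, ERBB3 at 8.14 and 8.14, and EGFR at 6.75 and 6.75. ERBB4 was not. Of 9 EGF family ligands 5 were detected (55.6%), near the 54.5% of all named genes. EREG, epiregulin, was at 7.94 and 7.90, TGFA at 7.74 and 7.69, and HBEGF at 6.74 and 6.94. EGF and NRG2 were detected on neither array. Of 44 other receptor tyrosine kinases 16 were detected (36.4%), led by the collagen receptor DDR1 (9.67 and 9.65), FGFR3 (9.54 and 9.58), the hepatocyte growth factor receptor MET (9.06 and 9.05), PTK7, EPHB4 and FGFR4. The receptors IGF1R, INSR, FGFR1, FGFR2 and PDGFRA were not detected. Downstream, 16 of 19 genes of the RAS to ERK route were detected. The adaptor SHC1 was at 10.49 and 10.48, the phosphatase PTPN11 at 10.26 and 10.63, and MAP2K1, which encodes MEK1, at 9.28 and 9.46. Genes that ERK activity is known to raise were detected in 21 of 24 cases (87.5%). IER3 stood at 13.17 and 12.94, PHLDA1 at 12.13 and 12.19, EGR1 at 10.23 and 10.01, DUSP6, a phosphatase of ERK, at 10.14 and 10.09, and DUSP5 at 10.14 and 10.04. SPRY3, SPRED3 and ETV1 were detected on neither array. Of 20 genes of the PI3K, AKT and mTOR route 17 were detected, with the GTPase RHEB at 10.81 and 10.83, RPS6KB2 at 10.05 and 10.20 and MTOR at 8.89 and 9.0. PIK3CG, PIK3R3 and RICTOR were not.

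Wnt signalling runs from secreted ligands through frizzled and LRP receptors to beta-catenin and TCF factors. Of 19 Wnt ligands 5 were detected (26.3%), and the brightest, WNT10B, reached 6.04 and 6.03. WNT3 was at 5.48 and 5.96 and WNT3A at 5.78 and 5.59. WNT2, WNT5A and WNT6 were among the 12 detected on neither array. Receptors were detected in 12 of 15 cases, with RYK at 10.22 and 10.34, LRP5 at 8.93 and 8.82, and FZD2 and FZD4 between 7.12 and 7.44. FZD5, FZD8 and FZD10 were not. Of 20 intracellular components 15 were detected. CTNNB1, the beta-catenin gene, was at 10.33 and 10.29, with 2 of its 7 probes detected on both arrays, CSNK1A1 at 8.92 and 8.63, and GSK3B at 8.38 and 8.33. Targets and feedback genes were detected in 11 of 22 cases (50%), near the 54.5% of all named genes. With every probe required the share was still 50%, against 42.7% of all named genes. The secreted inhibitor DKK1 stood at 12.61 and 12.48, CCND1, cyclin D1, at 12.03 and 12.06, NKD2 at 7.94 and 8.04 and ZNRF3 at 7.83 and 7.63. The secreted inhibitors SFRP1, SFRP2, SFRP5, DKK3 and WIF1 were detected on neither array, and LEF1, SFRP4 and DKK2 on 1 array.

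Other pathways of development were also detected in part. Receptors and SMADs of the TGF-beta and BMP route were detected in 14 of 21 cases, with SMAD4 at 9.55 and 9.63, TGFBR2 at 8.63 and 8.63 and SMAD3 at 8.48 and 8.31. TGFBR1, BMPR1B and ENG were not detected. The ligands were detected in 6 of 18 cases. GDF15, a stress-induced ligand, was at 10.84 and 10.63 and BMP4 at 7.38 and 7.44, while TGFB1, TGFB2 and TGFB3 were detected on neither array. With every probe of a gene required, receptors and SMADs fell to 7 of 21 and the ligands remained at 6 of 18. The shares were then equal at 33.3%, against 42.7% of all named genes. Notch genes were detected in 15 of 20 cases, or 7 with every probe required (35%). The effector HES4 was at 10.90 and 11.08, the receptor NOTCH1 at 8.74 and 8.83 and the ligand JAG2 at 8.42 and 8.23. Hedgehog genes were detected in 3 of 10 cases: the transducer SMO at 6.80 and 6.72, GLI2 at 5.67 and 5.60, and the receptor PTCH1 at 4.94 and 4.80, the last not at a detection p of 0.01. The ligands SHH, IHH and DHH, and GLI1, were not detected. Of 40 nuclear receptors 19 were detected (47.5%, against 54.5% of all named genes), or 12 with every probe required, among them NR2F6 (9.76 and 9.71), NR2F1 (9.68 and 9.61), PPARG (9.24 and 9.37) and RXRA (9.12 and 8.95). The oestrogen receptor ESR1 and the progesterone receptor PGR were not.

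Most genes of proliferation were detected, against 54.5% of all named genes. All 25 mitosis genes and all 9 cyclin-dependent kinases were detected, as were 28 of 29 replication genes and 11 of 14 cyclins. With every probe required 8 of the 14 cyclins were (57.1%, against 42.7% of all named genes). BUB3 and CDC20, of the spindle checkpoint, stood at 12.71 and 12.70 and at 12.35 and 12.32. UBE2C, which works with CDC20 in the anaphase complex, stood at 11.52 and 11.51. TOP2A, the mitotic topoisomerase, stood at 10.48 and 10.71. The helicase subunits MCM7 and MCM3, which unwind DNA at origins, were at 12.46 and 12.44 and at 12.41 and 12.35. ORC6, of the origin complex, was at 13.03 and 12.97, and TYMS, the thymidylate synthase that 5-fluorouracil inhibits, at 11.73 and 11.66. GINS1 passed on 1 array only. Among G1 kinases CDK4 was at 10.99 and 10.95 and CDK2 at 10.71 and 10.55. CCND1 (12.03 and 12.06) and CCND3 (10.44 and 10.77) were detected and CCND2 was not, nor were CCNE2 and the germ line cyclin CCNA1. All 9 CDK inhibitors and RB family members were detected. With every probe required 5 were (55.6%, against 42.7% of all named genes). CDKN1A, the p21 gene, was at 11.70 and 11.71, CDKN1B at 8.45 and 8.38, RB1 at 7.77 and 7.71 and CDKN2A at 7.45 and 7.44.

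Checkpoint and repair genes were also mostly detected, against 54.5% of all named genes. Of 18 checkpoint genes 17 were, with the phosphatase CDC25B at 11.09 and 10.81, MDC1 at 9.92 and 9.70, CHEK1 at 9.72 and 9.49 and WEE1 at 9.01 and 8.89. The kinase gene ATR was the exception, detected on neither array. All 7 named mismatch repair genes were detected, with MSH3 at 12.79 and 12.85, MSH6 at 10.09 and 10.04, EXO1 at 9.05 and 9.23, PMS1 at 5.73 and 5.74, and MLH3 the dimmest at 5.0 and 5.39. With every probe required 4 of the 7 were detected, against 42.7% of all named genes. An RNA signal does not say whether a gene is mutated. Of 21 genes of double-strand break repair 17 were detected, with XRCC6, the Ku70 gene, at 12.24 and 12.20 and PRKDC at 10.42 and 10.42. RAD50, RAD51B and XRCC4 were not. Telomere genes were detected in 10 of 11 cases. The telomerase holoenzyme proteins NOP10, NHP2 and DKC1 lay between 11.01 and 12.38, and TERT, the catalytic subunit, passed on 1 array only. Of 14 genes of DNA methylation and polycomb 11 were detected. The maintenance methyltransferase DNMT1 was at 12.26 and 12.29 and its partner UHRF1 at 11.43 and 11.42, while DNMT3A, DNMT3L and TET2 were not detected.

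Genes of the p53 pathway were detected in 18 of 22 cases (81.8%, against 54.5% of all named genes). Beside CDKN1A and GDF15, the death receptor TNFRSF10B was at 9.87 and 9.91, ZMAT3 at 9.68 and 9.66, the repair gene XPC at 8.95 and 8.88, and SFN, a 14-3-3 protein, at 8.94 and 8.84. FAS and TP73 were detected on neither array. In the BCL2 family 13 of 16 were detected. The survival genes BCL2L1 and MCL1 stood at 10.65 and 10.64 and at 8.88 and 8.69, the pore former BAX at 8.85 and 8.78, and BID, which caspase-8 cleaves, at 8.56 and 8.59. BCL2A1 and BMF were not detected. Death receptors and caspases were detected in 15 of 21 cases (71.4%). With every probe required 13 were (61.9%, against 42.7% of all named genes). CASP2 was at 11.17 and 11.14, TNFRSF1A at 8.93 and 8.89, and MLKL, the executor of necroptosis, at 8.56 and 8.72. Its upstream kinase RIPK3 was not detected, nor were TNFRSF25 and CASP5.

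Core metabolism was broadly detected, against 54.5% of all named genes. All 17 genes of the TCA cycle, all 19 of ATP synthase and all 76 named mitochondrial ribosomal proteins were detected. MDH2 and MDH1, the malate dehydrogenases, stood at 12.53 and 12.88 and at 12.44 and 12.40. ATP5F1B, the catalytic subunit of ATP synthase, stood at 13.80 and 13.69. Respiratory complex I was detected in 31 of 35 cases and cytochrome c oxidase in 9 of 14. All 5 oxidase genes detected on neither array, COX6A2, COX6B2, COX7A1, COX7B2 and COX8C, encode alternative subunit forms, of which COX6A2 and COX7A1 are known from muscle. Glycolysis showed the like choice of isoforms, with 23 of 28 detected. ENO1 was at 13.58 and 13.64, LDHA at 13.51 and 13.47, GAPDH at 13.30 and 13.47 and PGK1 at 11.76 and 11.67. PGK2, a testis form, PGAM2, a muscle form, and PKLR, a liver and red cell form, were not detected, nor was PDK1, and GAPDHS, a sperm form, passed on 1 array. For glucose uptake SLC2A1 was at 9.88 and 9.76 and HK2 at 8.64 and 8.43. HK1 was at 10.71 and 10.72, with 2 of 4 probes detected. SLC2A2, SLC2A4, SLC2A5 and HK3 were not detected. Of 25 glutathione and thioredoxin genes 22 were detected, with TXN at 13.46 and 13.63, PRDX1 at 13.52 and 13.42, GSTP1 at 12.55 and 12.50 and NQO1 at 12.32 and 12.27. Cholesterol synthesis genes were detected in 19 of 20 cases, led by SQLE at 10.17 and 10.10, and SREBF2 passed on 1 array. The drug transporters ABCC2 (8.85 and 8.76), ABCC4 (8.63 and 8.81) and ABCC3 (8.69 and 8.45) were detected, ABCB1 lay near background at 5.43 and 4.93 and was lost at a detection p of 0.01, and ABCG2 was not detected.

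Large complexes that every cell uses were also mostly detected, against 54.5% of all named genes. The proteasome was detected in 40 of 44 cases, and its 4 members detected on neither array, PSMA8, PSMB8, PSMB11 and PSMF1, include the germ line form PSMA8, the immune form PSMB8 and the thymus form PSMB11. PSMB1 stood at 12.52 and 12.46. Translation initiation factors were detected in 51 of 54 cases, the cytosolic chaperonin in 9 of 9 and nuclear pore proteins in 21 of 22. EIF4A1, the helicase that unwinds messenger RNA leaders, was at 13.57 and 13.61, and CCT7, a chaperonin subunit, at 12.73 and 12.47. The machinery that processes hairpin RNAs was detected in 13 of 14 cases. DROSHA, which cuts primary hairpins, was at 8.51 and 8.44 by 1 of 2 probes, XPO5, which exports them, at 8.93 and 9.01, and AGO2, which slices the target, at 9.70 and 9.67. AGO4 was not detected.

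Antigen presentation by class I was detected in 14 of 16 cases. B2M, the shared light chain, stood at 11.58 and 11.78, HLA-E at 9.85 and 9.73, HLA-B at 9.38 and 9.30, and TAP1, a peptide transporter, at 9.72 and 9.68. NLRC5, the class I activator, and PSMB8 were not detected. Of 11 class II genes 6 were detected, a share of 54.5%, the same as for all genes. HLA-DMA was at 8.10 and 8.24 and HLA-DRA at 7.05 and 7.36, while HLA-DRB1, HLA-DPB1, CD74 and the class II activator CIITA were detected on neither array. Nucleic acid sensors and interferon genes were detected in 20 of 26 cases. ISG15 stood at 11.15 and 11.25, IFI6 at 10.64 and 10.51 and the receptor chain IFNGR2 at 10.14 and 10.29. CGAS, the DNA sensor, TLR4, TLR7, TLR9, IFNB1 and IFNL1 were not detected. Of 25 cytokines and chemokines 7 were detected (28.0%). IL18, an epithelial cytokine, was at 12.11 and 12.16 and CXCL16 at 9.71 and 9.73 by 1 of 2 probes. IL10 was at 8.91 and 9.14 by 1 of 2 probes, the other being at 4.21 and 4.29. CXCL8, interleukin 8, was at 6.66 and 6.66, and IL1A, IL1B, IL6 and TNF were not detected. Of 13 genes of immune checkpoint ligands and related proteins 8 were detected (61.5%), against 54.5% of all named genes. CD276 was at 9.03 and 8.87, CD47 at 7.65 and 7.74, and NT5E, an enzyme and not a ligand, at 6.84 and 6.81. CD274, which encodes PD-L1, PDCD1LG2 and CD80 were detected on neither array.

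For contact with the matrix, 14 of 26 integrins (53.8%), 7 of 10 laminins and 11 of 22 matrix proteases and their inhibitors (50%) were detected, so integrins and proteases were near the 54.5% of all named genes. ITGB1 was at 11.78 and 11.53, ITGA3 at 9.18 and 9.29 and LAMA5, a chain of basement membrane laminin, at 11.11 and 11.43. The protease inhibitor TIMP1 was at 11.61 and 11.58, and PLAU, urokinase, at 8.97 and 8.86 with its receptor PLAUR at 7.90 and 7.85. The collagenase MMP1, the gelatinase MMP2 and MMP3 were not detected. Of 43 collagens 12 were detected, led by COL18A1 at 8.17 and 8.27, and of 23 claudins 9. In the S100 family 9 of 19 were detected, with S100A6 at 12.63 and 12.53 and S100A10 at 11.79 and 11.80, while S100A8, S100A9 and S100P were not.

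Large families of specialised tissues were detected in few cases, against 54.5% of all named genes. Olfactory receptors were detected in 10 of 371 cases (2.70%), keratin-associated proteins of hair in 2 of 80, beta-defensins in 1 of 37, taste receptors in 1 of 27, voltage-gated ion channels in 2 of 36 and protocadherins in 7 of 68. GABA and glutamate receptors were detected in 3 of 40 cases and chemokines in 4 of 43. None of 18 late cornified envelope proteins and none of 19 UDP glucuronosyltransferases was detected on both arrays. The dimmest of these calls did not last. At a detection p of 0.01 olfactory receptors were down to 4 and keratin-associated proteins, beta-defensins and taste receptors to 0. With replicate 2 alone olfactory receptors numbered 20, keratin-associated proteins 7, protocadherins 11 and taste receptors 3. With replicate 1 alone olfactory receptors numbered 18, keratin-associated proteins 4, beta-defensins 5 and ion channels 6. The brightest keratin-associated protein, beta-defensin and taste receptor genes had mean levels of 5.09, 5.18 and 4.92, near the detection limit. In the other families with a detected member the brightest gene was brighter. OR51B4 was at 8.81 and 8.66, the calcium channel CACNA1H at 8.24 and 8.24, and PCDH7 at 8.28 and 8.36. The chemokine CXCL16 was at 9.71 and 9.73 and the glutamate receptor subunit GRIN1 at 8.05 and 7.99. Other probes of CXCL16 and GRIN1 were not detected on both arrays. Of 53 cytochrome P450 genes 16 were detected, led by the retinoic acid hydroxylase CYP26B1 (9.44 and 9.39) and CYP24A1 (8.63 and 8.63), which degrades vitamin D. Zinc finger ZNF genes were detected in 287 of 483 cases (59.4%), near the share of all genes, though at a median level of 6.41 against 7.61.

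**Figure D4:**
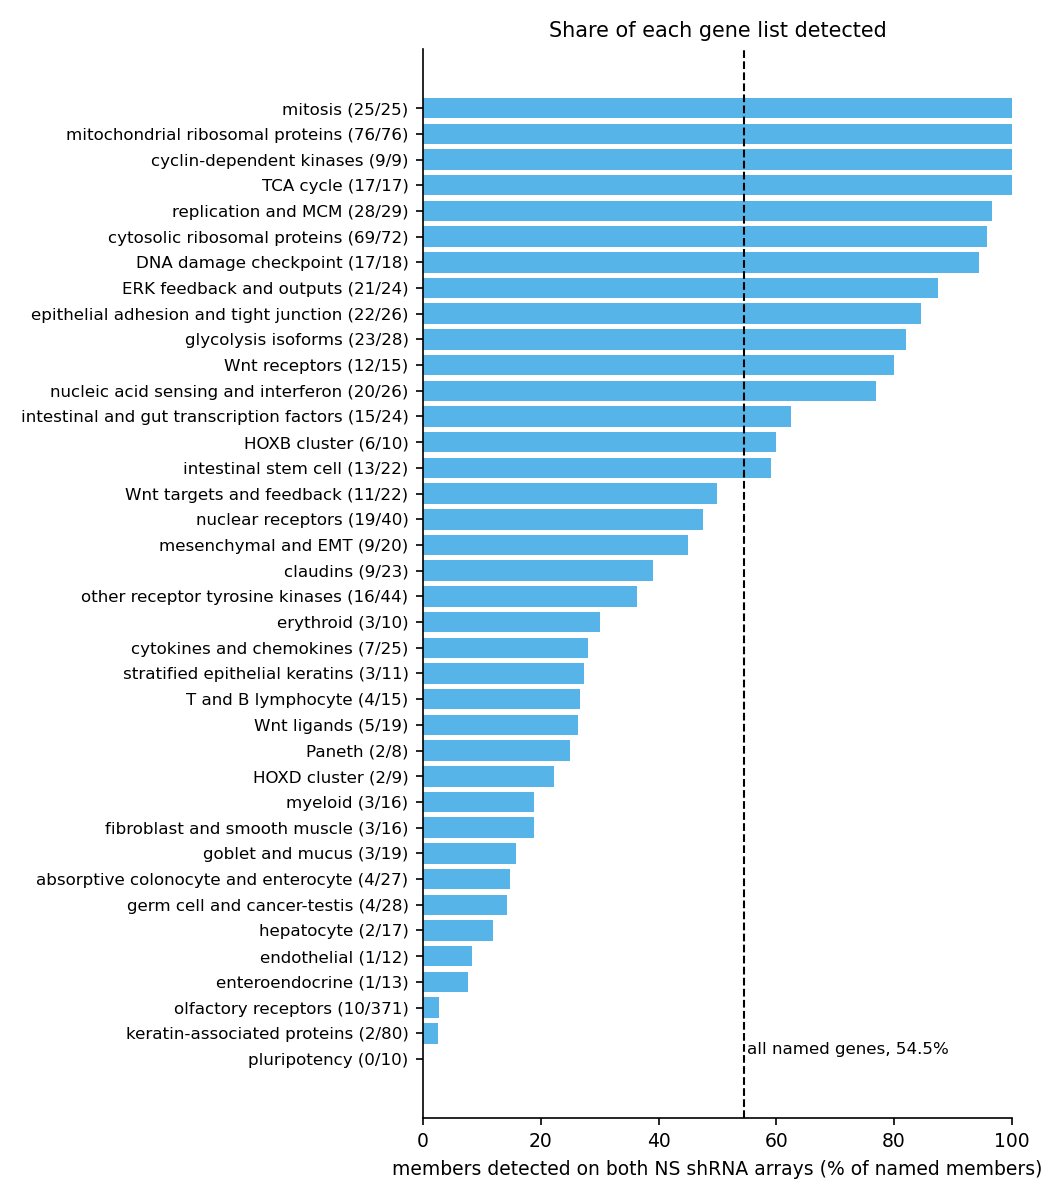
Percent of the named members of each gene list or family detected on both NS shRNA arrays (horizontal bars, with counts), and the share of all named genes as a dashed line at 54.5%. Mitosis, mitochondrial ribosomal and TCA cycle genes were all detected, while olfactory receptors reached 2.70% and pluripotency genes 0.

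Detection went with the base composition of the promoter. A window from 250 bases before to 50 after the start was called CpG-rich where its GC content was at least 50% and its CpG count at least 0.6 of that given by its base composition. Of the 11104 genes with a single listed start 64.7% had such a window, 85.6% of the detected genes and 36.2% of those detected on neither array. Seen the other way, 74.1% of 7186 genes with a CpG-rich window were detected and 22.9% of 3918 genes without one. The TATAAA motif, searched on the gene's strand from 40 to 15 bases before the start, was in 4.30% of all windows, in 2.01% of detected genes and in 7.45% of genes detected on neither array. With genes in 10 equal steps of level, the share with a CpG-rich window went from 92.0% in the brightest to 31.9% in the dimmest, and the share with a TOP start was 11.6% in the brightest step and between 2.34% and 5.32% in the others. These are shares over genes that share families and neighbourhoods, given as a description. Keratin-associated protein genes had TATAAA in 32 of 66 windows and a CpG-rich window in 0 of 66.

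The 100 bases before the listed start follow for PEA15, JUN and 3 genes of other cell types detected on neither array. These 3 are ADIPOQ of adipocytes, AHSG of hepatocytes and ALAS2 of red cell precursors. They were picked from markers without a CpG-rich window, so their low CpG content follows from that choice. Of all genes detected on neither array, 36.2% had a CpG-rich window. CpG pairs are in capitals, 5′ to 3′ on the gene's strand, RefSeq build GRCh38.p14.
PEA15 (chr1:160205284-160205383, plus strand): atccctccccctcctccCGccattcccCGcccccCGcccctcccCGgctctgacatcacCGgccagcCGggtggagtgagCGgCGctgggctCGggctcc
JUN (chr1:58784048-58784147, minus strand): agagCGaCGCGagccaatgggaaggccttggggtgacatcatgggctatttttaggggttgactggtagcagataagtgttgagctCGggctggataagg
ADIPOQ (chr3:186842610-186842709, plus strand): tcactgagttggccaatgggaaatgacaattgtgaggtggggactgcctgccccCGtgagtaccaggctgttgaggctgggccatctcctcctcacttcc
AHSG (chr3:186612960-186613059, plus strand): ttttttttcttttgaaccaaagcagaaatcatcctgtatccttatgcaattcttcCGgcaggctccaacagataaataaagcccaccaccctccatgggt
ALAS2 (chrX:55030978-55031077, minus strand): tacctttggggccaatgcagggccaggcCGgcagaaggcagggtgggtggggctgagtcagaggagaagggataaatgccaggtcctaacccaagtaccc
The PEA15 stretch holds 9 CpG pairs, JUN 4, and ADIPOQ, AHSG and ALAS2 1 each. Their full windows had observed to expected CpG ratios of 0.769 and 0.619 for PEA15 and JUN and of 0.125, 0.170 and 0.156 for ADIPOQ, AHSG and ALAS2.

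**Figure D5:**
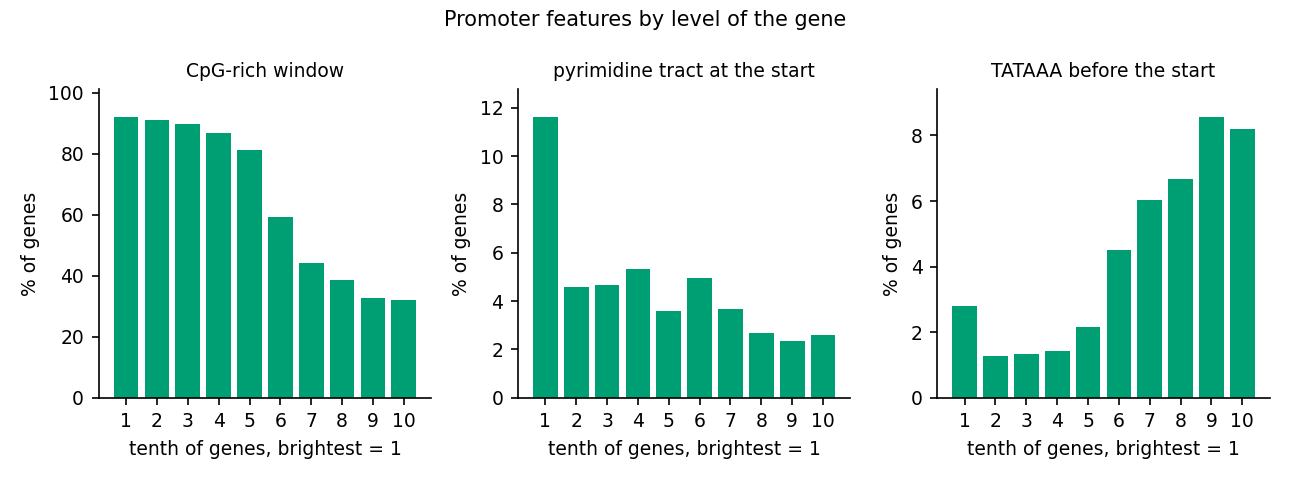
Percent of genes (vertical axes) with a CpG-rich window, a pyrimidine tract at the start and TATAAA before the start, over 10 equal steps of mean level from brightest (1) to dimmest (10), for 11104 genes. The CpG-rich share goes from 92.0% to 31.9% and the pyrimidine tract is most frequent, at 11.6%, in the brightest step.

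By chromosome, the share of named genes detected was highest on chromosome 16 (64.3% of 805) and 22 (62.8% of 454) and lowest on chromosome 21 (43.5% of 239) and X (40.7% of 857), with the other chromosomes between 49.1% and 58.2%. Chromosome Y and XIST were left out.

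Among genes detected on both arrays, the 10 that differed most between them were mostly dim. SNN was at 5.96 and 4.93, near the detection limit on replicate 2, and SOCS6 was the reverse, at 5.07 and 6.09. ZNF26 (5.05 and 5.98), CT45A3 (5.08 and 6.00) and ZNF594 (5.50 and 6.35) were also higher on replicate 2, as were DHRS13 and TMPRSS12. EXOSC8, an exosome subunit, was higher on replicate 1 at 8.69 and 7.85, as was PTGES3, a chaperone partner of HSP90, at 9.84 and 9.01, and TERC, the telomerase RNA, at 6.03 and 5.22. Just inside the detection threshold, with a larger detection p of 0.0494, were ARHGEF25, DERL3, GNGT2, INPP5J and MAPKBP1, whose mean levels lay between 4.82 and 5.08. Just outside it, at 0.0506, were ABCA11P, ADGRG2, ARPP21, CATSPER1 and CCHCR1, with mean levels between 4.81 and 5.20. The groups on either side of the threshold thus overlapped in mean level. Each call was set by the array with the larger detection p, which falls in step with the signal of that array. Genes tied in that detection p were taken in order of symbol.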

How the data were processed

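Total RNA was labelled with biotin and hybridised to Illumina arrays, per the labels' protocols. The deposited intensity of each probe is a mean signal on a linear scale with a detection p-value from 770 implied negative controls. The authors also deposited log2 values made with lumi, per the submitters' processing notes (version not given), used as an alternative only. The intensity of both NS arrays was corrected with neqc of limma 3.58.1 (R 4.3.3), with an offset of 16, quantile normalisation and log2. Genes were probes with 1 symbol in the platform annotation (30113; 8 had several and 17202 were unlisted), and 143 probes of chromosome Y or XIST were left out. No contrast was fitted and no set was tested. Gene lists (66) and families (31), of 1211 list genes 1116 with a named probe, were chosen with earlier results of these data known. Members without a named probe were not analysed here. Text names the 20 brightest genes, up to 6 brightest detected members per list, up to 8 not detected, the 10 largest array differences and 5 genes on each side of the threshold. At the threshold, genes tied in detection p were taken in order of symbol. Other named genes were chosen after their values were seen: CDH1, MLH3, genes that passed on 1 array, and genes shown for promoter sequence. The detection rule was run on simulated data with a single probe per gene and expressed genes set far above background. That setting largely fixed their recovery and does not test the calls of genes with several probes or dim signals. The number of arrays limits the precision.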

Additional observations from a re-analysis of the deposited data

How the results depend on the processing

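No paired analysis was possible because the results come from no test and from 1 group only. Under a detection p of 0.01, adjusted detection p-values, detection on at least 1 array, and either array alone, the counts of detected probes, genes and list members stayed within 1.5 times the reported ones. For genes, the counts were 10122, 10360 and 12132 for the first 3, and 11444 to 11588 with 1 array left out. Requiring every probe gave 8526 (42.7%). Using single-probe genes only leaves 13293 genes, of which 6523 (49.1%) were detected, and 344 list members against 659. The median level of detected genes, 7.61, was 7.64 with all 6 arrays normalised together, 8.11 from the deposited signal, 8.17 from the authors' values and 7.0 with the median probe, which kept 12 of the 20 brightest genes. The other 3 kept 20. Of 96 lists, 92 kept their side of the share of all genes at a detection p of 0.01, the exceptions being ABC drug transporters, EGF family ligands, HLA class II and immune checkpoint ligands. At that detection p, 10 lists changed their count by over 1.5 times, among them lymphocyte (4 to 1), colonocyte (4 to 2), hepatocyte (2 to 1), protocadherin (7 to 4) and olfactory receptor genes (10 to 4). With every probe required, 89 lists kept their side and 26 changed their count by over 1.5 times, among them goblet (3 to 0), Paneth (2 to 0), lymphocyte (4 to 0), myeloid (3 to 0), hepatocyte (2 to 0), neuron (7 to 4), germ cell (4 to 2), ERBB receptor (3 to 1), cytokine (7 to 4) and collagen genes (12 to 7). Detection on at least 1 array moved 15 lists by that much, replicate 2 alone 11 and replicate 1 alone 7. With replicate 2 alone fibroblast genes went from 3 to 5, chemokines from 4 to 7 and adipocyte genes from 1 to 2. With either array alone GABA and glutamate receptors went from 3 to 7 and melanocyte and retina genes from 2 to 4. Leaving out replicate 1 moved 5 lists across and replicate 2 moved 2, HOXC among both. The causes were not tested.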

Other observations

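The fetal and embryonic globin genes and their olfactory receptor neighbours on chromosome 11 were detected together, a stretch singled out after its values were seen. Read in RefSeq order, 7 of the 10 named genes from HBG1 to OR51I1 were detected, but both ends were set at detected genes, which raises that share. HBE1, the embryonic beta-like globin, was the brightest at 10.91 and 10.83. HBG2 was at 8.18 and 8.04 and HBG1 at 8.0 and 7.95, genes so alike that their probes may read the same RNA. Beside them OR51B4 was at 8.81 and 8.66, OR51B5 at 6.33 and 6.43 by both of its probes, OR51B2 at 5.21 and 4.96, and OR51I1 at 5.15 and 5.14. OR51B2 was lost at a detection p of 0.01. OR51B6, OR51M1 and OR51Q1, which lie in the same stretch, were detected on neither array. On the side of the adult genes none of the next 8 named genes was detected, with HBB at 4.70 and 4.46 and HBD at 4.39 and 4.53. On the other side 2 of the next 7 were, TRIM5 at 8.35 and 8.06 and TRIM6 at 6.51 and 6.50. What these genes share beyond their place was not tested.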
